A study of Mus musculus with 18 samples.

Results

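Transcripts of 10 genes of the Notch pathway were followed in mouse embryonic stem cells (mESCs) with and without IκBα and in the embryoid bodies (EBs) made from them. The genes were taken by symbol among the 55487 genes counted: the receptors Notch1, Notch2 and Notch3, the ligands Dll1, Dll3 and Jag1, the receptor-modifying enzyme Lfng, the DNA-binding factor Rbpj, and the target genes Hes1 and Hey1. All 10 were measured and all 10 passed the filter on low counts. The cells were ES-E14TG2a mESCs carrying a CRISPR-Cas9 edit with guides against the start of Nfkbia, the gene of IκBα (IκBα-KO), or non-targeting guides (IκBα-WT), as 3 clones of each genotype. The mESCs were cultured in Serum/LIF, a medium in which the cytokine LIF holds back differentiation. EBs are aggregates that differentiate in suspension without LIF and were collected at 48 hr and 96 hr. RNA-seq gave 18 libraries, 6 per stage, and the labels place 3 IκBα-WT and 3 IκBα-KO samples in each stage. The names of the EB columns do not give a genotype, and genotype was not read from expression values. The comparison of genotypes was therefore made in mESCs, and EB libraries were used by stage, so that the spread within an EB stage holds both genotypes. The EB libraries are called a to f, and a letter joins the 48 hr and 96 hr libraries whose columns carry the same code.

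The Notch pathway signals between touching cells. Delta-like and Jagged ligands on a cell bind Notch receptors on its neighbour, proteases of the ADAM family and γ-secretase then cut the receptor, and its intracellular part enters the nucleus and joins RBPJ and Mastermind-like proteins at target genes. The classical targets are some of the Hes and Hey genes, such as Hes1 and Hey1, which encode transcriptional repressors. In the early mouse embryo, the pathway is known for the segmentation of mesoderm into somites, where Dll1, Dll3, Lfng, Hes7 and Nrarp act, and for the development of blood vessels and blood, where Dll4, Jag1, Hey1 and Hey2 act.

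RBPJ is known to bind DNA with the core TGGGAA, and GTGGGAA is a longer form of the same site that contains the core. The 250 bases before the start site were searched on both strands in 20 genes, which were the 10 genes and 10 others listed as Notch targets. RefSeq promoters of GRCm38.p6 were matched for 15 of the 20 genes, among them 8 of the 10 genes (all but Hes1 and Hey1). The core was found in 5 of the 15 genes and in 21.6% of all 32851 promoters in the table, and the longer form in 4 of the 15 genes and in 5.42% of all promoters. The 4 windows that hold the longer form are printed because they show where the letters lie around the start of these genes. They are those of Lfng (chr5:140607091-140607340, plus strand), Hes5 (chr4:154960673-154960922, plus strand), Hes7 (chr11:69120203-69120452, plus strand) and Hey2 (chr10:30842784-30843033, minus strand). Each runs 5′ to 3′ on the strand of its gene and ends at the base before the start site, and capitals mark the core or the longer form in either orientation, the reverse orientation being TTCCCA or TTCCCAC.
Lfng: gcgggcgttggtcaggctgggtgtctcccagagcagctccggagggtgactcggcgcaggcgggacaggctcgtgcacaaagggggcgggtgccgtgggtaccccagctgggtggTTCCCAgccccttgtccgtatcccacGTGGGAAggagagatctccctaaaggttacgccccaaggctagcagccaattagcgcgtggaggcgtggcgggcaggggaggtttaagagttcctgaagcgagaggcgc
Hes5: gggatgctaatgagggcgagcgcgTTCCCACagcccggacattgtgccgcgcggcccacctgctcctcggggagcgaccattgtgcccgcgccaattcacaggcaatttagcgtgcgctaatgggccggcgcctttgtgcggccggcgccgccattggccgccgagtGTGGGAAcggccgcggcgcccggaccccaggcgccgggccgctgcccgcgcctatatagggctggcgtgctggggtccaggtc
Hes7: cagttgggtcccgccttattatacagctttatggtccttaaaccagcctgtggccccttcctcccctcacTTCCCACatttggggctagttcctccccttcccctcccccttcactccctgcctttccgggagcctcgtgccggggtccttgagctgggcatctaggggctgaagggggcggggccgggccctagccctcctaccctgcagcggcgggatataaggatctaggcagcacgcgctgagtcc
Hey2: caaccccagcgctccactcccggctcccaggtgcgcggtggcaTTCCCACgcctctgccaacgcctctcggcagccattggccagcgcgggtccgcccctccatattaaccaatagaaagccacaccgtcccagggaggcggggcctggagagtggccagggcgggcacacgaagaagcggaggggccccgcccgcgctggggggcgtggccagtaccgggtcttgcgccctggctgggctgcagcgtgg
The longer form began 109 bases before the start site in Lfng, 83 bases in Hes5 on the gene's strand and 226 bases in Hes5 on the other strand, 180 bases in Hes7 and 207 bases in Hey2. In the 15 matched genes, Rbpj held the core without the longer form. These matches are letters in a window and were not tested as binding sites.

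The depth of a library, as its total of counts, lay between 29423089 and 31091857 for IκBα-WT mESCs, between 34107070 and 40904247 for IκBα-KO mESCs, from 28287582 to 33169091 at 48 hr and from 30570857 to 36340056 at 96 hr. Nfkbia had 1009, 1069 and 767 counts in IκBα-WT clones 1 to 3 and 347, 385 and 372 counts in IκBα-KO clones 1 to 3, and it fell by 1.67 on the log2 scale (standard error, SE, 0.14, edgeR adjusted p = 0.00489). IκBα-KO clones 1 and 3 were closer to each other than to clone 2, with a chi-square per degree of freedom of 8.45 between them against 53.7 and 60.9 between each of them and clone 2. The stage labels were checked against marker lists, by the thresholds for a call given below. The share of all genes called the same way is in brackets. Of 12 naive pluripotency markers, 8 were lower at 48 hr (4.95%) and 11 at 96 hr (9.65%) than in mESCs. Of 10 formative and primed epiblast markers, 8 were higher than in mESCs at each EB stage (4.62% at 48 hr and 11.2% at 96 hr). Of 12 primitive streak and early mesoderm markers, 11 were higher at 96 hr than at 48 hr (7.1%). Their summed level differed widely between the 96 hr libraries, from 28.9 to 1085 CPM (counts of a gene relative to its library's total, scaled by TMM).

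The level of the 10 genes was compared per length of exon, as RPKM (CPM per kilobase). In IκBα-WT mESCs, Rbpj was the highest at 34.6 ± 2.47 RPKM (SD, n = 3), followed by Notch3 at 9.19 ± 1.18 RPKM (SD, n = 3). Jag1 at 5.65 ± 0.35 and Hes1 at 5.26 ± 0.47 RPKM (SD, n = 3) had overlapping ranges and cannot be ordered. Notch1 at 3.98 ± 0.22, Notch2 at 3.15 ± 0.40, Lfng at 2.31 ± 0.29 and Dll1 at 1.43 ± 0.17 RPKM (SD, n = 3) came next, each without overlap with its neighbours. Hey1 at 1.21 ± 0.01 and Dll3 at 1.20 ± 0.10 RPKM (SD, n = 3) were the lowest and overlapped. Dll3, with up to 1.32 RPKM, also overlapped with Dll1, which began at 1.23 RPKM. In IκBα-KO mESCs, Rbpj again stood above the rest at 37.0 ± 4.85 RPKM (SD, n = 3), and the ranges of Notch3, Hes1, Jag1 and Notch1 overlapped from each to the next. By 96 hr the order at the top had changed. Notch3 led at 25.1 ± 3.30 RPKM (SD, n = 6) with no overlap with Rbpj, the next gene by mean. The highest Hes1 library, at 21.6 RPKM, lay above the lowest Notch3 library, at 20.2 RPKM. Rbpj at 12.8 ± 3.68 and Hes1 at 12.7 ± 6.25 RPKM (SD, n = 6) overlapped. Every later neighbour in the 96 hr order also overlapped, down to Lfng at 1.78 ± 1.21 RPKM (SD, n = 6).

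**Figure D1:**
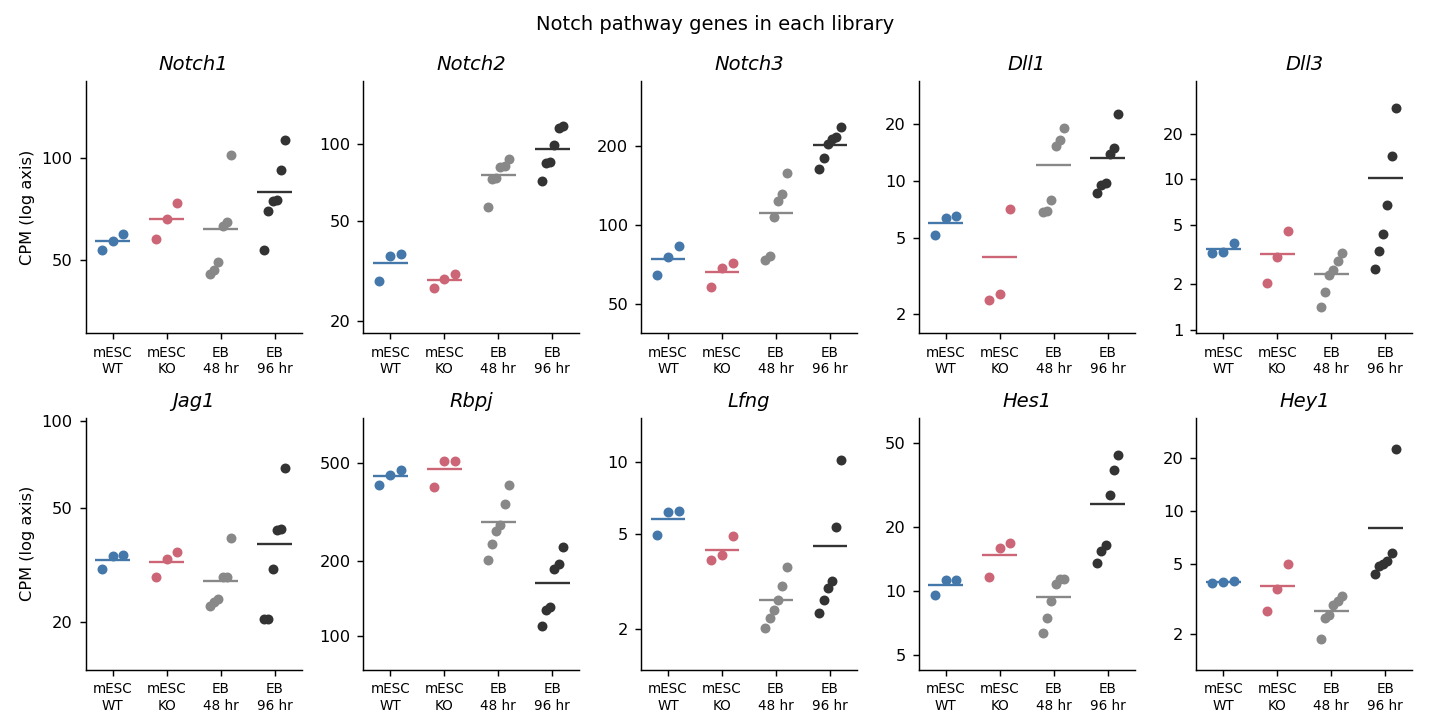
Level of each of the 10 Notch pathway genes in each library. The vertical axes are CPM on log axes that differ between panels, points are libraries (3 per genotype in mESCs, 6 per EB stage) and the bar is the group mean. Dll1 is lower in 2 IκBα-KO clones than in every other library, Notch2 and Notch3 climb from mESCs to 96 hr EBs, Rbpj falls, and Dll3, Hes1 and Hey1 spread widely at 96 hr.

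The comparison of genotypes asked whether the transcripts of the pathway differ without IκBα in mESCs. None of the 10 genes passed the test of edgeR (quasi-likelihood, Benjamini-Hochberg adjustment over 21843 genes), in which a called gene has an adjusted p under 0.05 and a log2 fold change beyond 1 in either direction. Over all genes, 1.06% were called higher and 0.641% lower in IκBα-KO mESCs. DESeq2 called 0 of the 10 genes, and 2 of them, Hes1 and Lfng, had an unadjusted p under 0.05 in edgeR, as did 21.6% of all genes. The median log2 fold change of the 10 genes was -0.08, against 0.01 over all genes.

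Hes1, the most general target of Notch receptors, had 11.3, 11.3 and 9.61 CPM in IκBα-WT clones and 16.9, 11.7 and 15.9 CPM in IκBα-KO clones. All IκBα-KO clones were above all IκBα-WT clones, by a narrow margin for clone 2 (two-sided exact permutation test, p = 0.1, the smallest that 3 clones against 3 allow). Its log2 fold change was 0.47 (SE 0.17, edgeR adjusted p = 0.151). Lfng, which encodes the Fringe glycosyltransferase that changes how receptors respond to Delta-like and Jagged ligands, had 4.95, 6.17 and 6.24 CPM in IκBα-WT and 3.90, 4.90 and 4.09 CPM in IκBα-KO clones. No clone crossed into the range of the other genotype (two-sided exact permutation test, p = 0.1), and the log2 fold change was -0.43 (SE 0.17, edgeR adjusted p = 0.186).

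Dll1, a Delta-like ligand that activates receptors on neighbouring cells, had the largest fold change of the 10 genes and the least agreement between clones. It had 5.19, 6.37 and 6.50 CPM in IκBα-WT clones and 2.52, 7.09 and 2.37 CPM in IκBα-KO clones. Clone 2 was the highest of the 6 libraries, and clones 1 and 3 were the lowest. The log2 fold change was -0.59 (SE 0.39, edgeR adjusted p = 0.425). Without IκBα-KO clone 2 it was -1.29 (SE 0.17, adjusted p = 0.000316), which passes both thresholds. Leaving out this clone also raised the calls over all genes, from 372 to 872. The 2 clones that remain are the pair whose counts lay close together. The genes within the 10 Mb window around Dll1 on chromosome 17 had median differences from the IκBα-WT mean of -0.04, -0.16 and -0.03 in log2 CPM in IκBα-KO clones 1 to 3, while Dll1 itself differed by -1.23, 0.24 and -1.31. The same 2 clones had more RNA of 8 endoderm markers, summed to 78.7 and 125 CPM in clones 1 and 3 against 13.8 CPM in clone 2 and 11.8 to 16.3 CPM in IκBα-WT clones. The part of these markers in the level of Dll1 was not tested.

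The remaining genes did not pass the test. The receptor Notch1 had 56.9, 59.7 and 53.4 CPM in IκBα-WT and 66.1, 73.7 and 57.5 CPM in IκBα-KO clones, with overlapping genotypes and a log2 fold change of 0.21 (SE 0.10, edgeR adjusted p = 0.255). Notch2 and Notch3 had log2 fold changes of -0.22 (approximate 95% interval from the SE, -0.44 to -0.00) and -0.17 (95% interval -0.39 to 0.05). Rbpj, with 469, 446 and 407 CPM in IκBα-WT and 506, 400 and 508 CPM in IκBα-KO clones, had a log2 fold change of 0.10 (95% interval -0.12 to 0.31). The Jagged ligand Jag1 was closest to 0, at -0.03 (95% interval -0.22 to 0.16). Dll3, a divergent Delta-like protein that does not activate receptors on other cells, was at -0.10 (95% interval -0.64 to 0.44), and Hey1 at -0.07 (95% interval -0.52 to 0.38). For Dll3 and Hey1 these intervals are wide, on CPM under 6 in each mESC library.

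Among 50 other Notch pathway genes, 0 were called between genotypes in mESCs by edgeR, while DESeq2 called Gata3 and 8 of the 50 had an unadjusted p under 0.05 (21.6% of all genes had). The protease genes Adam10 (log2 fold change 0.45, edgeR adjusted p = 0.0166) and Furin (0.53, edgeR adjusted p = 0.0451) passed the adjusted p alone and were higher in IκBα-KO mESCs, as were 3.09% of all genes. ADAM10 makes the cut in the receptor that follows ligand binding, and furin cuts the receptor during its passage to the cell surface. The median log2 fold change of the 50 genes was -0.01. Jag2, a further Jagged ligand, was chosen here after its values were seen, because it split the clones as Dll1 did. It had 36.2, 37.4 and 40.9 CPM in IκBα-WT and 18.1, 41.4 and 14.8 CPM in IκBα-KO clones, with a log2 fold change of -0.63 (SE 0.33, edgeR adjusted p = 0.309). Unlike at Dll1, the 68 genes in the 10 Mb window around Jag2 on chromosome 12 were low in the same clones, with median differences of -0.94, -0.33 and -0.97 in log2 CPM in IκBα-KO clones 1 to 3. Whether the level of Jag2 follows from that region was not tested.

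**Figure D2:**
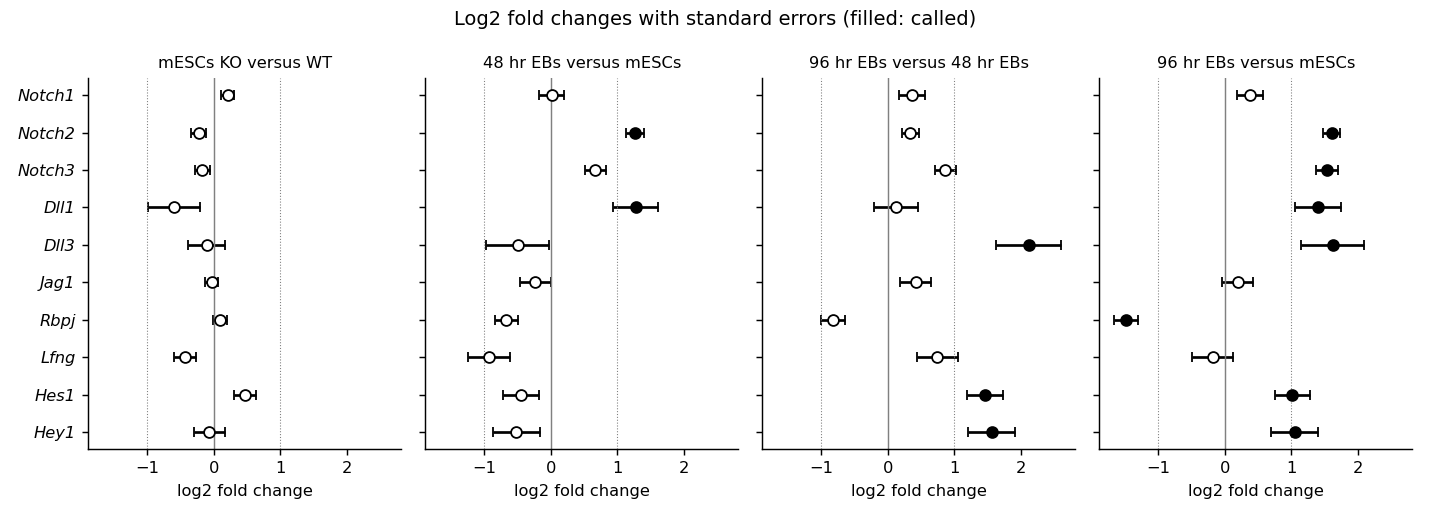
Log2 fold changes of the 10 genes in the 4 comparisons. The horizontal axis is the log2 fold change from edgeR, bars are SEs, filled points passed both thresholds and dotted lines mark log2 fold changes of -1 and 1. No point is filled between genotypes in mESCs, and 7 points are filled between 96 hr EBs and mESCs, of which Rbpj is the only decrease.

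The levels at the 3 stages were compared over 25318 genes in all 18 libraries. The 3 stage comparisons share libraries, so they are not independent of each other. Between mESCs and 48 hr EBs, 2 of the 10 genes were called higher (Notch2 and Dll1) and 0 lower, where 4.62% of all genes were higher and 4.95% lower. Between 48 hr and 96 hr, 3 genes were called higher (Dll3, Hes1 and Hey1) and 0 lower, where 7.1% of all genes were higher and 4.76% lower. Between mESCs and 96 hr EBs, 6 genes were called higher (Notch2, Notch3, Dll1, Dll3, Hes1 and Hey1) and 1 lower (Rbpj), where 11.2% of all genes were higher and 9.65% lower. Median log2 fold changes of the 10 genes were -0.34, 0.58 and 1.03 in these comparisons, against 0.00, -0.03 and -0.01 over all genes. In bulk RNA, a change in the number of cells that express a gene and a change of its RNA per cell cannot be told apart.

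Of the receptors, Notch2 and Notch3 rose, and Notch1 did not pass the test when EB libraries were taken as unpaired. Notch2 had 27.0 to 36.7 CPM over the 6 mESC libraries, and its lowest, median and highest levels were 56.6, 77.7 and 87.4 CPM at 48 hr and 72.0, 92.3 and 119 CPM at 96 hr. Every EB library was above every mESC library. The log2 fold change was 1.26 (SE 0.13, edgeR adjusted p = 1.08e-06) from mESCs to 48 hr and 1.61 (SE 0.13, adjusted p = 4.97e-08) from mESCs to 96 hr, and 0.34 between the EB stages (SE 0.13, adjusted p = 0.0508). Notch3 passed the test in each stage comparison. It had 58.0 to 83.2 CPM in mESCs, then 73.8, 116 and 158 CPM (lowest, median, highest) at 48 hr and 164, 210 and 237 CPM at 96 hr. The 96 hr libraries lay above all others, while the mESC and 48 hr ranges overlapped. Its log2 fold change was 0.67 from mESCs to 48 hr (SE 0.16, edgeR adjusted p = 0.00358) and 0.86 from 48 hr to 96 hr (SE 0.16, adjusted p = 0.000917), each under the fold threshold, and 1.53 from mESCs to 96 hr (SE 0.16, adjusted p = 8.79e-07). Notch1 had 53.4 to 73.7 CPM in mESCs, then 45.5, 56.0 and 102 CPM at 48 hr and 53.3, 74.7 and 113 CPM at 96 hr. The 3 ranges overlapped, and its log2 fold changes were 0.01, 0.37 and 0.38 (edgeR adjusted p = 0.97, 0.159 and 0.117). With the shared column code as a block, 2 receptors passed the adjusted p between 48 hr and 96 hr, each under the fold threshold. They were Notch1 (log2 fold change 0.42, SE 0.13, edgeR adjusted p = 0.0371) and Notch2 (0.36, SE 0.06, edgeR adjusted p = 0.0015). Exons of Notch1, Notch2 and Notch3 overlap those of other annotated genes, and a strand setting of the counting is not given in the sources used here, so part of their counts could belong to a neighbour.

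The ligands differed in timing. Dll1 had 2.37 to 7.09 CPM in mESCs, then 6.84, 11.6 and 19.1 CPM (lowest, median, highest) at 48 hr and 8.63, 11.8 and 22.4 CPM at 96 hr. It rose from mESCs to 48 hr with a log2 fold change of 1.27 (SE 0.34, edgeR adjusted p = 0.00897) and was 0.12 from there to 96 hr (SE 0.34, adjusted p = 0.819). The 96 hr libraries did not overlap with mESCs (log2 fold change 1.40, SE 0.34, adjusted p = 0.00303). Dll3 had 2.04 to 4.54 CPM in mESCs and 1.43, 2.40 and 3.22 CPM at 48 hr, and then spread from 2.54 through a median of 5.57 to 29.9 CPM at 96 hr. Its log2 fold change was -0.50 from mESCs to 48 hr (SE 0.47, edgeR adjusted p = 0.482) and 2.12 from 48 hr to 96 hr (SE 0.49, adjusted p = 0.00419). Against mESCs it was 1.62 at 96 hr (SE 0.48, adjusted p = 0.0104), where the libraries overlapped (two-sided exact permutation test, p = 0.0823). Without 96 hr library b, which had 29.9 CPM, these values were 1.44 (adjusted p = 0.00915) and 0.93 (adjusted p = 0.0451), so the call against mESCs was lost. Jag1 had 28.8 to 35.1 CPM in mESCs, then 22.8, 26.3 and 39.3 CPM at 48 hr and 20.5, 36.1 and 68.4 CPM at 96 hr. Its range widened around the mESC level, and its log2 fold changes were -0.23, 0.42 and 0.19 (edgeR adjusted p = 0.514, 0.185 and 0.533).

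Rbpj, which encodes the factor that carries the signal of all Notch receptors to DNA, passed the test with a decrease in each stage comparison. It had 400 to 508 CPM in mESCs, then 202, 272 and 407 CPM (lowest, median, highest) at 48 hr and 109, 158 and 228 CPM at 96 hr. Every 96 hr library was below every mESC library. The log2 fold change was -0.66 from mESCs to 48 hr (SE 0.18, edgeR adjusted p = 0.00874), -0.82 from 48 hr to 96 hr (SE 0.18, adjusted p = 0.0028) and -1.49 from mESCs to 96 hr (SE 0.18, adjusted p = 4.24e-06). The enzyme gene Lfng, whose window with the longer motif is printed above, had 3.90 to 6.24 CPM in mESCs, then 2.02, 2.52 and 3.62 CPM at 48 hr and 2.33, 3.07 and 10.2 CPM at 96 hr. All 48 hr libraries were below all mESC libraries, with a log2 fold change of -0.93 (SE 0.31, edgeR adjusted p = 0.0313), just inside the fold threshold. It passed that threshold without 48 hr library b (-1.04) and without IκBα-KO clone 1 (-1.01). From 48 hr to 96 hr it was 0.75 (SE 0.31, adjusted p = 0.0781).

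The target genes Hes1 and Hey1 had their lowest medians at 48 hr and rose from there to 96 hr. Hes1 had 9.61 to 16.9 CPM in mESCs, then 6.36, 9.89 and 11.4 CPM (lowest, median, highest) at 48 hr and 13.5, 22.5 and 43.9 CPM at 96 hr. All 96 hr libraries were above all 48 hr libraries (two-sided exact permutation test, p = 0.00216, the smallest that 6 against 6 allow). This test treats the EB libraries as unpaired, although the shared column codes were taken to pair them. Its p-value can therefore overstate the evidence. Hes1 kept its call between 48 hr and 96 hr with the shared column code as a block. The log2 fold change was -0.45 from mESCs to 48 hr (SE 0.27, edgeR adjusted p = 0.239) and 1.46 from 48 hr to 96 hr (SE 0.27, adjusted p = 0.000978). From mESCs to 96 hr it was 1.02 (SE 0.27, adjusted p = 0.00508), close to the fold threshold. It dropped under that threshold, with an adjusted p under 0.05, without any of 7 libraries, which were 96 hr libraries b (0.82), e (0.99) and f (0.88), IκBα-KO clone 2 (0.99) and IκBα-WT clones 1 (0.98), 2 (0.99) and 3 (0.96). Hey1 had 2.70 to 5.03 CPM in mESCs, then 1.89, 2.75 and 3.29 CPM at 48 hr and 4.38, 5.12 and 22.6 CPM at 96 hr. The 96 hr libraries were all above the 48 hr libraries, and library b was far above the other 96 hr libraries. The log2 fold change was -0.51 from mESCs to 48 hr (SE 0.35, edgeR adjusted p = 0.304), 1.56 from 48 hr to 96 hr (SE 0.35, edgeR adjusted p = 0.00382) and 0.94 without library b (SE 0.17, adjusted p = 0.00123). From mESCs to 96 hr it was 1.05 (SE 0.35, adjusted p = 0.021). This became 0.41 (adjusted p = 0.0642) without library b and 0.96 (adjusted p = 0.0476) without IκBα-KO clone 3.

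Most of the 10 genes varied more between EB libraries than the median gene. The median SD of log2 CPM within a stage was 0.23 for the 10 genes in mESCs, against 0.19 for the 13177 genes averaging at least 50 counts. It was 0.36 against 0.23 at 48 hr and 0.60 against 0.26 at 96 hr, and at each EB stage 9 of the 10 genes lay above the median of all genes. Above the 90th percentile of all genes lay 1 of the 10 at 48 hr and 2 at 96 hr. The genes compared were not matched on level, and genes with few counts spread more. These values are descriptions of 6 libraries per stage that hold both genotypes. At 96 hr, library b was the highest of the 6 for 6 of the 10 genes (Dll1, Dll3, Jag1, Lfng, Hes1 and Hey1), while it was the highest for 23.5% of the 13177 genes. It was also the lowest of the 6 for Rbpj. Library b held the highest summed level of 8 blood and endothelial markers (553 CPM, against 33.5 to 90.8 CPM in the other 96 hr libraries) and of 8 endoderm markers (352 CPM, against 29.4 to 109 CPM).

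At 96 hr, Hes1 had 16.5, 43.9, 15.5, 13.5, 28.5 and 37.1 CPM in libraries a to f. The summed level of 12 primitive streak and early mesoderm markers in the same libraries was 32.9, 945, 33.3, 28.9, 719 and 1085 CPM. Libraries b, e and f were the highest in both. Dll3, which acts in presomitic mesoderm, had 3.35, 29.9, 4.35, 2.54, 6.79 and 14.3 CPM in libraries a to f, and the same 3 libraries were the highest. Rbpj had 228, 109, 195, 186, 127 and 131 CPM, with libraries b, e and f the lowest. Hey1 had 4.88, 22.6, 5.24, 5.01, 4.38 and 5.78 CPM, so that library b stood apart from 5 libraries within a narrow range. Nfkbia was also higher in each of libraries b, e and f than in each of a, c and d. The part of genotype, or of mesodermal, endodermal or blood cells, in these levels was not tested.

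**Figure D3:**
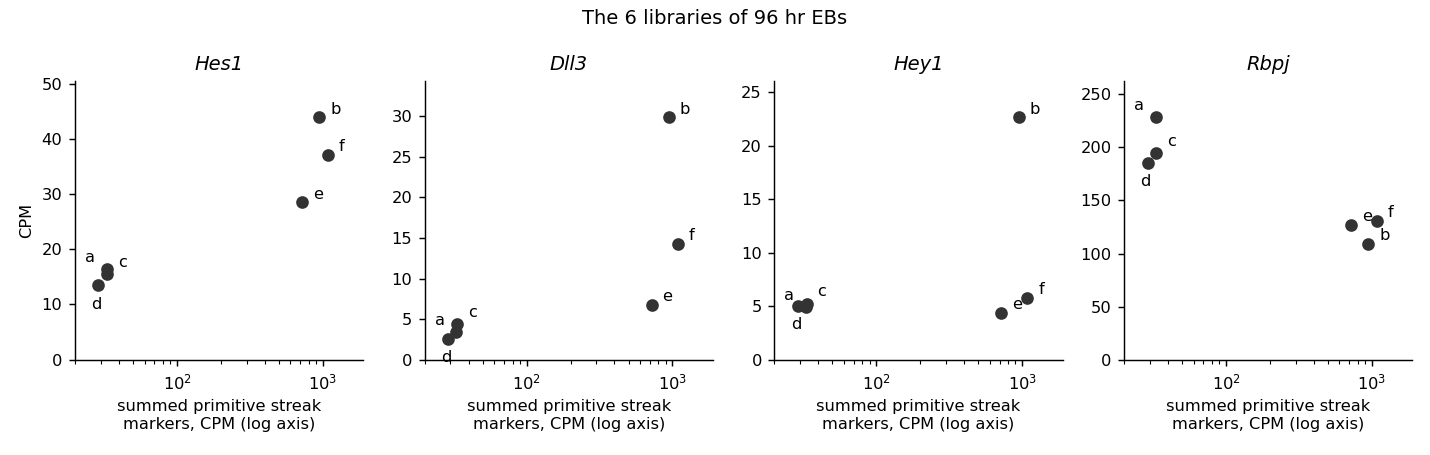
Level of Hes1, Dll3, Hey1 and Rbpj in the 6 libraries of 96 hr EBs (vertical axes, CPM from 0) against the summed level of 12 primitive streak and early mesoderm markers in the same library (horizontal axes, CPM on a log axis). Letters name the libraries. Hes1 and Dll3 are highest and Rbpj lowest in libraries b, e and f, which have the most marker RNA, and Hey1 is high in library b only.

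The 50 other genes of the pathway were described by role in the stage comparisons. Between mESCs and 48 hr EBs, 2 were called higher and 0 lower (median log2 fold change 0.08), where all genes gave 4.62% and 4.95%. Between 48 hr and 96 hr, 6 were called higher and 0 lower (median 0.28), where all genes gave 7.1% and 4.76%. Between mESCs and 96 hr EBs, 9 were called higher and 2 lower (median 0.47), where all genes gave 11.2% and 9.65%. Among 5 further receptors and ligands, Dll4, the Delta-like ligand of vessels, rose from mESCs to 48 hr with a log2 fold change of 2.10 (SE 0.58, edgeR adjusted p = 0.0101), on 0 to 9 counts per library in mESCs and 9 to 28 at 48 hr. Notch4, the receptor of endothelium, was the opposite of Notch2 and Notch3. It had 16.5 to 24.0 CPM in mESCs and 5.54 to 12.2 CPM at 96 hr, a log2 fold change of -1.26 (SE 0.29, adjusted p = 0.00201) without overlap between the stages.

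Of 9 genes of receptor cleavage, Furin and Aph1b were called higher and 0 lower between 48 hr and 96 hr. Over all genes, 7.1% were called higher and 4.76% lower. Furin had 16.0 to 30.6 CPM at 48 hr and 40.0 to 67.6 CPM at 96 hr, without overlap (log2 fold change 1.12, SE 0.17, edgeR adjusted p = 0.000253). Aph1b, a subunit of γ-secretase, had a log2 fold change of 2.14 (SE 0.33, adjusted p = 0.000252), on 11 to 20 counts per library at 48 hr and 33 to 157 at 96 hr. Of the 11 genes of receptor glycosylation and ligand trafficking, 0 passed both thresholds in a stage comparison. At the adjusted p alone, 5 of these 11 were higher and 2 lower between 48 hr and 96 hr, where 13.9% of all genes were higher and 13.8% lower. The closest to a call was Neurl1b, which encodes a ubiquitin ligase that acts on ligands, with a log2 fold change of 0.98 (SE 0.22, edgeR adjusted p = 0.00343) between 48 hr and 96 hr. It passed both thresholds with no low-count filter, with the filterByExpr filter, with the shared column code as a block and without some of the libraries.

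Of 15 nuclear cofactors and regulators, Maml3, a Mastermind-like coactivator, was called higher between 48 hr and 96 hr (7.1% of all genes were). It had 0.510 to 2.60 CPM at 48 hr and 1.44, 7.27 and 27.6 CPM (lowest, median, highest) at 96 hr, with a log2 fold change of 3.14 (SE 0.58, edgeR adjusted p = 0.000957). Dtx4, a Deltex-type ubiquitin ligase, rose from mESCs to 48 hr (log2 fold change 1.45, SE 0.40, adjusted p = 0.0102) and was 1.82 above mESCs at 96 hr (SE 0.40, adjusted p = 0.00133).

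Of 10 other genes listed as targets, Nrarp, Hey2 and Hes7 were called higher and 0 lower between 48 hr and 96 hr. Over all genes, 7.1% were called higher and 4.76% lower. Whether the listed genes respond to Notch receptors in these cells was not tested. Nrarp, which is induced by Notch receptors and limits their signal, had 1.46 to 3.74 CPM at 48 hr and 5.93, 8.26 and 19.2 CPM (lowest, median, highest) at 96 hr, without overlap. Its log2 fold change was 2.01 (SE 0.31, edgeR adjusted p = 0.000266). Exons of Gm38287, on the opposite strand, cover 2051 of the 2582 exon bases of Nrarp. As the strand setting of the counting is not given, a large part of the Nrarp counts could belong to Gm38287. Exons of Hes7, Dll4 and Furin also overlap those of other genes, over fewer bases. Hes7, the oscillating repressor of the segmentation clock, had 3 to 7 counts per library at 48 hr and 9 to 21 at 96 hr (log2 fold change 1.17, SE 0.36, adjusted p = 0.0218), and its adjusted p was 0.0512 without 48 hr library c. Hey2 had a log2 fold change of 1.67 (SE 0.54, adjusted p = 0.0295), which was 0.65 without 96 hr library b, where it had 6.42 CPM. It also lost its call without 48 hr library b, e or f and with the shared column code as a block (edgeR adjusted p = 0.259). From mESCs to 96 hr, Hes6 rose (log2 fold change 1.24, SE 0.22, adjusted p = 0.000214) and Heyl was called higher on 0 to 5 counts per mESC library and 5 to 17 counts at 96 hr. Hes2 was called lower (log2 fold change -1.19, SE 0.44, adjusted p = 0.0335), on 3 to 44 counts in mESCs and 6 to 11 at 96 hr, and lost the call without any of 6 libraries (96 hr libraries b, c and e, IκBα-KO clone 2, IκBα-WT clones 1 and 2). Hes7 lost its call from mESCs to 96 hr without IκBα-KO clone 3 (log2 fold change 0.96).

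**Figure D4:**
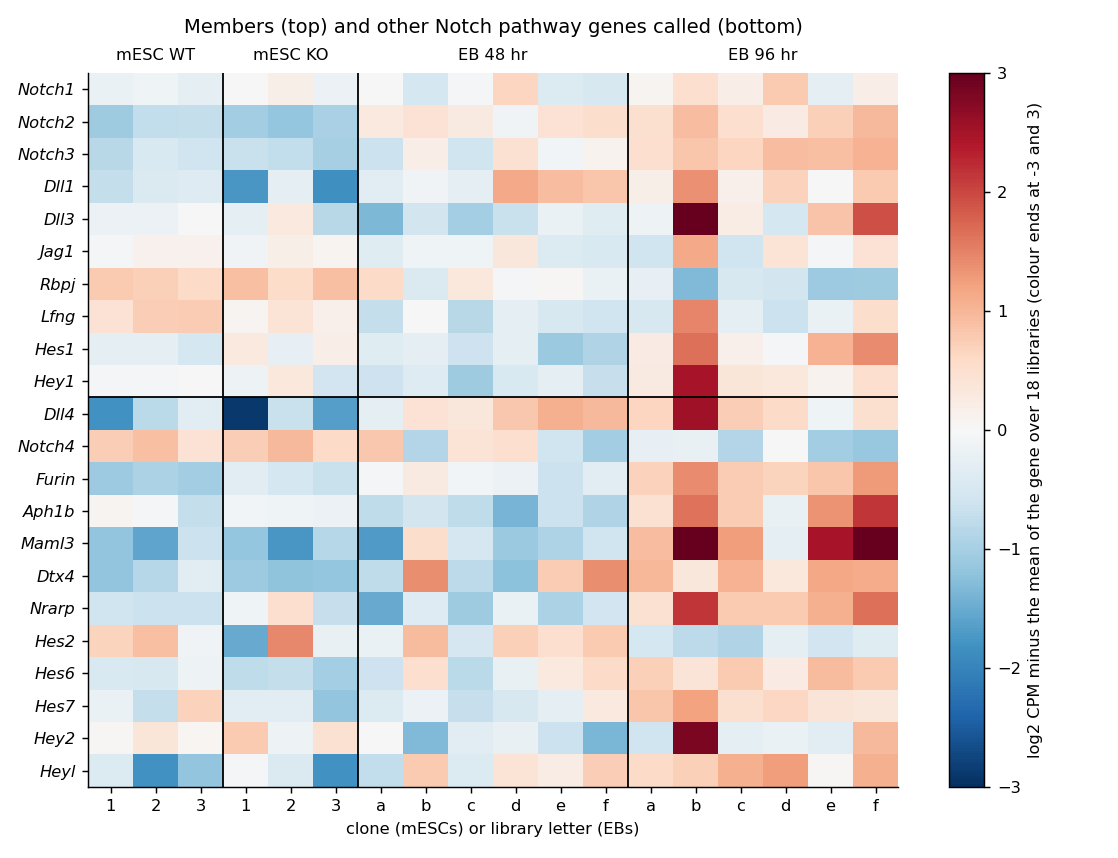
Log2 CPM of each gene in each library minus its mean over the 18 libraries, for the 10 genes (rows above the line) and the other Notch pathway genes called in a stage comparison (rows below it). Columns are the 3 clones per genotype in mESCs and libraries a to f at 48 hr and 96 hr, red is above and blue below the mean, and colours end at -3 and 3. The low Dll1 of IκBα-KO clones 1 and 3, the decrease of Rbpj and the high values of 96 hr library b for Dll3, Hey1, Dll4, Maml3 and Hey2 can be seen.

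The genes whose log2 CPM followed each of the 10 genes most closely over the 18 libraries were taken from the 13177 genes averaging at least 50 counts, leaving out the Notch lists. These correlations are descriptions across libraries that share stages and clones. For Rbpj they were Mtf2, U2surp and Rabif (Pearson r of 0.99 each), and for Notch2 they were Cachd1, Csnk1d and Yeats2 (0.98 each). Notch3 was followed by Abhd4, Fbxw4 and Lzts2 (0.97, 0.97 and 0.96). Hes1 was followed by Mef2a, Srd5a3 and Pcdhgc3 (0.97, 0.96 and 0.96). The likeness was lower for Dll3 (Fgd5, Slit1 and Cfc1, 0.94 each) and for Hey1 (Hdac7 and Cpm at 0.92, Rbm24 at 0.91). Dll1 was followed by Selenop, Tns2 and Chst1 (0.92, 0.92 and 0.90), Notch1 by Tfcp2, Plekha6 and Gngt2 (0.91, 0.88 and 0.87), Lfng by Mdm1, Ripk2 and Myl7 (0.91, 0.90 and 0.89) and Jag1 by Rgs5, Erlin2 and Hhex (0.88, 0.88 and 0.87).

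By position on GRCm38, Notch1 (ENSMUSG00000026923) spans 26457903 to 26516663 and Jag1 (ENSMUSG00000027276) 137081456 to 137116644 on chromosome 2. Notch2 (ENSMUSG00000027878) spans 98013527 to 98150361 and Hey1 (ENSMUSG00000040289) 8663359 to 8667256 on chromosome 3. Notch3 (ENSMUSG00000038146) spans 32120820 to 32166852 and Dll1 (ENSMUSG00000014773) 15367354 to 15376872 on chromosome 17. Rbpj (ENSMUSG00000039191) spans 53466152 to 53657362 and Lfng (ENSMUSG00000029570) 140607320 to 140615545 on chromosome 5. Dll3 (ENSMUSG00000003436) spans 28293553 to 28302238 on chromosome 7, and Hes1 (ENSMUSG00000022528) 30064384 to 30067796 on chromosome 16. In the IκBα-KO clones, the 10 Mb windows around the 10 genes had median differences from the IκBα-WT mean of -0.19 to 0.11 in log2 CPM.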

How the data were processed

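RNA-seq was made from 3 IκBα-WT and 3 IκBα-KO mESC clones in Serum/LIF and from 6 samples each of 48 hr and 96 hr EBs. The authors trimmed reads with TrimGalore 0.6.6, aligned them to GRCm38 with STAR 2.7.8, and used featureCounts (Subread 2.0.1) to count reads with a unique position on exons. The deposited table holds these raw counts, as whole numbers, for 55487 genes. The authors' strand setting is not given in the sources used here. Their table of normalized values was not used. By the labels each EB stage holds both genotypes, and the genotype of an EB column was not inferred from its values.

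In R 4.3.3, edgeR 4.0.16 (TMM, robust quasi-likelihood test, Benjamini-Hochberg adjustment over all genes tested) was run on genes with at least 10 counts, in 6 mESC libraries by genotype and in 18 libraries by stage. A call needs an adjusted p under 0.05 and a log2 fold change beyond 1 in either direction. Standard errors (SE) equal the size of the fold change over the square root of F. Log2 CPM used a prior count of 2, and RPKM used the exons of GENCODE vM21, which held 55227 of the genes. The precision of all values is limited by the spread between 3 clones or 6 EB libraries more than by depth, except for genes with few counts. The study's methods describe 3 clones per genotype, and the p-values of the genotype comparison measure the spread between these clones. In the stage comparisons, they measure the spread between libraries of a stage, which holds both genotypes. Apart from the fit with the shared column code as a block, the stage fits take libraries of different stages as independent.

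The genes and lists were chosen with earlier results of these data known. The genes named are Nfkbia, the 10 genes, other Notch genes called (or passing the adjusted p where said), and the 3 genes most alike each of the 10. Alternatives were size factors of DESeq2 1.42.0, its Wald test, no low-count filter, filterByExpr, no fold threshold, each library left out in turn, the replicate number as a block, and mESC genotypes as 2 groups. Counts over the 50 other Notch genes and a block of the code shared by EB columns were added after seeing the data. The deviations from the stage mean of 48 hr and 96 hr libraries with the same code had correlations of 0.396 to 0.734, and the codes were taken to pair EB libraries, although 48 hr library b correlated more with 96 hr libraries e (0.751) and f (0.649). The lowest chi-square per degree of freedom between libraries of a group was 5.47, so none were duplicates. The scripts were tested on simulated counts.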

Additional observations from a re-analysis of the deposited data

Results flagged for a closer look

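Among 44 groups of 6 EB libraries that were tested for a library far from the others, 2 were flagged, and chance flags about 1 in 20 such groups. At 96 hr, Hey1 in library b lay far above the other 5 libraries (22.6 CPM against 4.38 to 5.78 CPM). On the scale of log2 CPM, the gap was 0.832 of the whole range, against a critical value of 0.625. Dll4 at 96 hr was also far above the others in library b (2.54 CPM), with a gap of 0.670 of the range in log2 CPM. The same library had the most RNA of the blood and endothelial markers (553 CPM) and of the endoderm markers (352 CPM) at 96 hr, and the part of such cells in these values was not tested.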

How the results depend on the processing

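Without a fold threshold, 5 of the 10 genes passed between mESCs and 48 hr and 5 between 48 hr and 96 hr, and the genes called over all were 1046 between genotypes in mESCs, 7053 from mESCs to 48 hr, 7019 from 48 hr to 96 hr and 10894 from mESCs to 96 hr, against 372, 2422, 3003 and 5278 with it. Of the 50 other Notch genes, 2, 10, 21 and 32 passed in the same order. The DESeq2 Wald test called 572 genes between genotypes, and 1 and 4 of the 50 other genes between genotypes and from mESCs to 48 hr. With the mESC genotypes as 2 groups, 4 of the 50 were called from mESCs to 48 hr. Without a low-count filter, the log2 fold change of Notch1 from mESCs to 48 hr was -0.0071, on the other side of 0, and the cause was not tested.

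With each library left out in turn, 0 to 1, 2 to 3, 2 to 3 and 4 to 7 of the 10 genes were called in the 4 comparisons. The genes called over all were 0 to 872 between genotypes (0 without IκBα-WT clone 2, 872 without IκBα-KO clone 2), 2078 to 2637, 2108 to 4154 and 4572 to 6093 in the stage comparisons, and the other Notch genes 0 to 2, 2 to 3, 5 to 10 and 10 to 12. Fold changes near 0 changed sign: between genotypes Dll3 (-0.43 to 0.13), Jag1 (-0.082 to 0.042) and Hey1 (-0.32 to 0.12), and between stages Notch1 (-0.19 to 0.086, mESCs to 48 hr), Dll1 (-0.060 to 0.30, 48 hr to 96 hr) and Jag1 (-0.047 to 0.32, mESCs to 96 hr).

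WT and KO clones that share a replicate number deviated from their group means with correlations of -0.117, -0.0078 and -0.028, so the number was taken as a name only. The replicate number as a block gave 0 of the 10 genes and 261 genes in all between genotypes. The block of the code shared by EB columns gave 3 of the 10 genes and 3535 genes in all between 48 hr and 96 hr, and changed no call of the 10 genes. At the adjusted p alone, Notch1 and Notch2 passed with this block and not without it. Of the 50 other genes this block gave 8 calls, with Hey2 lost and Hes2, Kat2b and Neurl1b added. DESeq2 set no adjusted p for Hey1 in the 3 stage comparisons.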

Other observations

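At 96 hr, libraries a, c and d lay apart from libraries b, e and f in several of the 10 genes and in mesodermal markers. The summed primitive streak and early mesoderm markers were 32.9, 33.3 and 28.9 CPM in libraries a, c and d and 719 to 1085 CPM in libraries b, e and f. Notch2, the receptor, did not divide them as widely (84.2, 85.6 and 72.0 CPM against 116, 99.1 and 119 CPM in b, e and f). Jag1 divided the libraries in another way, with 20.6 and 20.5 CPM in libraries a and c, 30.6 CPM in e, 41.6 and 42.0 CPM in d and f, and 68.4 CPM in b. Notch1 was the highest in library d (113 CPM) and the lowest in library e (53.3 CPM). Nfkbia in 96 hr EBs ranged from 4.97 to 23.0 CPM with a median of 11.5 CPM. It divided the libraries in the same way as the mesodermal markers, with each of b, e and f above each of a, c and d. By the labels this stage holds both genotypes, and whether the division of the libraries follows genotype was not tested.

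At 48 hr, library d was the highest of the 6 for 5 of the 10 genes, while it was the highest for 19.5% of the 13177 genes averaging at least 50 counts.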
